A study of Mus musculus with 2 samples.

Results

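Neuregulins and related growth factors and the ErbB receptors they bind were followed in the embryonic mouse heart as 9 genes of the 43346 mouse genes in the deposited tables. They were taken by symbol: 5 ligand genes (Nrg1, Nrg2, Nrg3, Nrg4 and Hbegf) and all 4 receptor genes (Egfr, Erbb2, Erbb3 and Erbb4), with their 36 transcripts. Total RNA longer than 200 nt came from whole hearts of healthy embryos of strain B6NCrl, a C57BL/6N substrain, at 10.5 days of development. No allele, agent or second condition is given in the labels. Biological replicate 1 pooled the hearts of 69 embryos and replicate 2 those of 51 embryos, both sexes mixed, and 10 ng of RNA with ERCC spike-ins (synthetic RNAs of known amount) entered each library. The comparisons are therefore between genes and transcripts within 1 tissue, read against the spread between 2 pools. Both are pools of whole hearts, so a lower level can mean fewer cells of a type or less RNA per cell, which cannot be told apart.

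ErbB receptors are tyrosine kinases of the cell surface that signal as pairs after an EGF-like ligand binds. In the embryonic heart, Nrg1 is released by the endocardium, the inner lining, and acts on Erbb2 and Erbb4 of heart muscle, a signal needed for trabeculae, the muscular ridges of the ventricle wall. Erbb3 serves in the mesenchyme of the endocardial cushions, and Hbegf acting through Egfr limits the growth of the valves that form from those cushions.

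Library totals were 45205713 and 41070978 expected counts (estimated read counts), and mouse genes took 43295923 and 39786163 of them. The labelled tissue was checked against marker genes. All 9 heart muscle markers were detected at 1 TPM (a transcript level scaled by length and by library) or more in both pools, with summed levels of 19613.6 and 31250.7 TPM in replicates 1 and 2. The 7 blood cell markers summed to more in both pools, at 28503.1 and 35246.8 TPM. Replicate 1 stood apart in markers of other organs. Its 7 liver primordium markers summed to 1288.3 TPM against 52.6 TPM in replicate 2, and its 7 markers of foregut and other epithelium to 369.4 against 153.1 TPM. The values of each pool are therefore given separately below.

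All 4 receptors and 3 of the 5 ligands were detected at 1 TPM or more in both pools. That is 7 of 9 genes, beside 12231 of 21474 protein-coding genes (57.0%). In order of mean level, with the SD over n = 2 pools, Erbb2 came first at 49.6 ± 14.4 TPM. Erbb4 followed at 9.79 ± 2.35 TPM, then Hbegf at 7.04 ± 0.636, Erbb3 at 6.35 ± 0.205, Nrg1 at 3.78 ± 1.42, Egfr at 2.06 ± 0.644 and Nrg4 at 1.13 ± 0.0283 TPM. Nrg2 and Nrg3, ligands best known from the nervous system, were below 1 TPM in both pools. Whether neighbours in this order differ was judged against a limit taken from the data: the 95th percentile of the pool-to-pool log2 ratio of the 500 genes nearest in level to each gene, combined for the pair. By that limit 21 of the 36 pairs of members differed, with the same sign in both pools. Of the 8 neighbouring pairs only Erbb2 over Erbb4 passed, at a mean log2 TPM ratio of 2.33 ± 0.07 against a limit of 1.23. With the 99th percentile in place of the 95th that limit is 2.63 and the pair lay inside it. From Erbb4 down to Nrg3 each gene and the next lay within their spread.

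**Figure D1:**
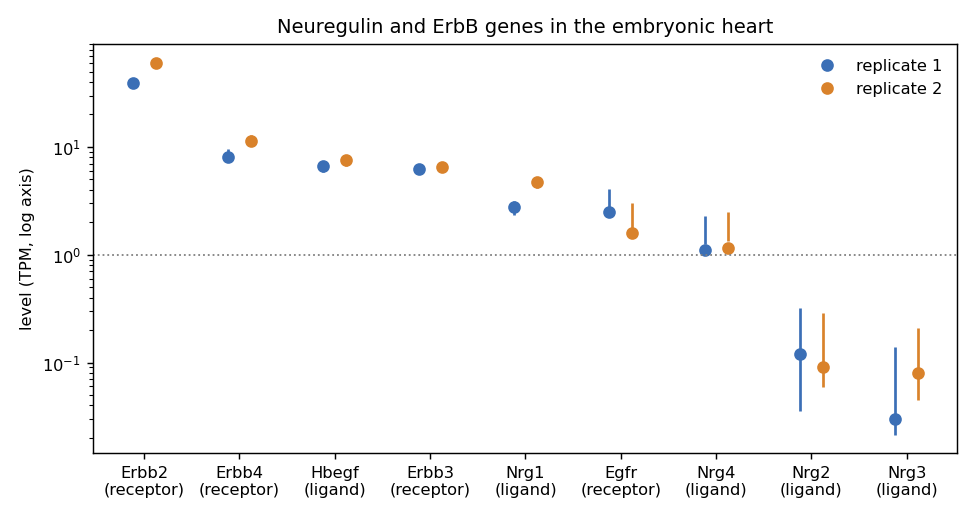
TPM of the 5 ligand and 4 receptor genes (log axis) in replicate 1 (blue) and replicate 2 (orange), with vertical lines for the deposited interval of TPM, drawn around the posterior mean (a point may lie outside), and a dotted line at 1 TPM. Erbb2 lies above the other 8 genes in both pools, and Nrg2 and Nrg3 lie below the dotted line.

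Erbb2, the receptor with no known ligand of its own and the preferred partner of the others, was the leading receptor. Its gene (ENSMUSG00000062312.5, GRCm38 chromosome 11, 98412470 to 98437716, plus strand) had 39.5 and 59.8 TPM in replicates 1 and 2, resting on 5872 and 7883 counts. Of protein-coding genes, 85.5% had a lower mean level. Erbb2 held 70.1% and 75.4% of the summed TPM of the 4 receptors, 4.86-fold and 5.22-fold the level of Erbb4. Nearly all of it was a single model: Erbb2-201, which codes for the full receptor of 1256 codons in 27 exons, held 96.2% and 95.7% of the gene's TPM. Its exons overlap those of Mien1 on the opposite strand by 9 nt (82.3 and 86.9 TPM). The sources used here do not say whether counting used strand, and reads in those bases are uncertain.

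Erbb4, a neuregulin receptor with an active kinase that serves in heart muscle, was the second receptor by TPM. The gene (ENSMUSG00000062209.11, chromosome 1, 68032186 to 69108059, minus strand) had 8.13 and 11.5 TPM, from 1106 and 1397 counts, and 14.4% of the receptor sum in each pool. Its transcripts differ in a pair of places that change what the receptor can do. Exon 16 is either the JM-a exon, whose product can be cut at the cell surface by ADAM17, or the JM-b exon, whose product cannot. Exon 26, the CYT-1 exon, adds a binding site for PI3-kinase in the cytoplasmic tail. These exons are shown, as they tell the deposited models apart, 5′ to 3′ on the minus strand of GRCm38 from GENCODE M21, in lower case throughout. They lie at chr1:68290243-68290317 (JM-a, 75 nt), chr1:68290439-68290483 (JM-b, 45 nt) and chr1:68043908-68043955 (CYT-1, 48 nt).
Erbb4 JM-a exon: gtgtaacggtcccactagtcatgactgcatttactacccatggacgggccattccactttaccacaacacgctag
Erbb4 JM-b exon: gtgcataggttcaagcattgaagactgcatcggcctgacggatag
Erbb4 CYT-1 exon: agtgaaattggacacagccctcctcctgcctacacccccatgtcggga

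By TPM the leading Erbb4 model was Erbb4-205, which carries the JM-b exon, with 54.8% and 48.1% of the gene. Erbb4-202, with the JM-a exon and without the CYT-1 exon, held 25.6% and 24.3%. By counts the order was the other way round. Erbb4-202 had 756.5 and 911.8 counts and Erbb4-205 had 283.9 and 316.6. The models with the JM-b exon stood 2.24-fold and 1.89-fold above those with JM-a by TPM, while those with JM-a held 2.80-fold and 3.26-fold more counts. The models are not of like extent. Erbb4-205 is annotated for 2196 nt over 19 exons with no end found, while Erbb4-202 runs for 12037 nt, and Erbb4-201 closes with an exon of 8301 nt. No JM-b model in the deposited tables covers the last coding exons, so the shares do not measure the use of the alternative exons alone. The gene's TPM, its place among the receptors and the fold of Erbb2 over it carry the same limit. Erbb4-205 gave 4.45 and 5.50 TPM and the JM-a models 2.20 and 3.18 TPM, beside 6.20 and 6.49 TPM for Erbb3.

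Erbb4-201, the only deposited model with both the JM-a and the CYT-1 exon, had 43.95 and 126.8 counts. It made up 5.46% and 12.6% of the TPM of the JM-a models, so most JM-a signal was assigned to the model without the PI3-kinase site in both pools. Short noncoding models weigh on the gene's TPM. Erbb4-203, a retained intron of 744 nt, held 12.3% and 19.7% of it from 19.7 and 39.8 counts. Erbb4-204, of 240 nt, had 0.47 and 0.52 TPM from 2 counts in each pool. The 3 coding models alone summed to 6.65 and 8.68 TPM.

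Erbb3, a neuregulin receptor with a very weak kinase that signals through its partner, had nearly the same level in both pools. The gene (ENSMUSG00000018166.8, chromosome 10, 128567523 to 128589652, minus strand) stood at 6.20 and 6.49 TPM, from 1116 and 1053 counts, all on Erbb3-201 with 1339 codons. Its level differed from that of Erbb4 by a mean log2 TPM ratio of 0.61 ± 0.30, inside the limit of 1.69. In replicate 1 it had more counts than Erbb4 (1116 against 1106). Erbb3 also marks neural crest and its Schwann cell descendants in the embryo. The 6 markers of those cells had a summed level of 6.78 and 3.57 TPM, with Foxd3 at 0 in replicate 2, and their part in the level of Erbb3 was not tested.

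Egfr, the receptor of EGF, TGF-alpha and HB-EGF, was the lowest receptor. The gene (ENSMUSG00000020122.12, chromosome 11, 16752203 to 16918158, plus strand) had 2.51 and 1.60 TPM, from 404 and 268 counts, and 4.46% and 2.02% of the receptor sum. Its level was divided between a full-length and a truncated model. Egfr-201, the full receptor of 1210 codons, had 298.4 and 198.9 counts and 38.6% and 44.8% of the TPM. Egfr-202 has 655 codons, lacks the exons of the transmembrane and kinase parts, and had 97.8 and 69.1 counts and 45.0% and 55.3% of the TPM. By TPM the truncated model led in both pools, and by counts the full-length model did. The deposited TPM intervals of Egfr-201 and Egfr-202 overlapped in replicate 1 (0.83 to 1.07 and 0.80 to 1.37). They also did in replicate 2 (0.59 to 0.81 and 0.56 to 1.12), so the lead by TPM is not resolved. The end of the truncated reading frame is shown because it sets the model apart (chr11:16887141-16887228, GRCm38, plus strand). The lower case letters are the 45 bases shared with exon 16 of Egfr-201, and the capitals mark the 43 bases that follow in the extended exon, stop codon included.
Egfr-202 coding end: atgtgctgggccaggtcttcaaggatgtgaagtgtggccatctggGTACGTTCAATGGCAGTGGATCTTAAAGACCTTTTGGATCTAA

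A short noncoding model also moved the level of Egfr. Egfr-204, of 716 nt, had 7.77 counts in replicate 1 and none in replicate 2, and it made up 16.5% of the gene's TPM in replicate 1. The coding models alone summed to 2.10 and 1.61 TPM.

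Nrg1, the endocardial ligand of Erbb3 and Erbb4, was detected in both pools. The gene (ENSMUSG00000062991.6, chromosome 8, 31814551 to 32884029, minus strand) had 2.77 and 4.78 TPM, from 169 and 263 counts with exact Poisson intervals of 144.5 to 196.5 and 232.2 to 296.8. The count intervals do not overlap. They hold counting error alone, as the labels name no molecular identifiers and reads copied from 1 molecule cannot be separated. The deposited tables hold a single Nrg1 model, Nrg1-201, with 700 codons and a length of 2103 nt that equals its coding sequence with the stop. In GENCODE M21, where its length is 2452 nt, the model opens with an exon of 744 nt that holds the code for the cysteine-rich domain of type III neuregulin. Its EGF-like domain ends with the beta exon and is followed by the short exon of 24 nt found in the beta1 form.

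GENCODE M21 lists 18 Nrg1 transcripts, 12 of them coding, so the single deposited model leaves most forms without a row. Of the 12 coding forms, 4 carry the opening exon of the deposited model and 8 carry the exons of the immunoglobulin-like domain of types I and II. The beta exon is in 8 and the alpha exon, which gives an EGF-like domain of lower affinity, is in 4. Between 24.9% and 74.1% of the coding bases of the 8 immunoglobulin-like forms lie inside the M21 exons of the deposited model. Reads there can count for it, while reads from the remaining bases have no row. The Nrg1 level thus mixes reads of the opening exon, carried by 4 of the 12 coding forms, with reads of exons shared more widely. The type and the alpha or beta form cannot be read from it. The exons at issue are shown because the choice between the first and the second sets the receptor affinity, in lower case, 5′ to 3′ on the minus strand of GRCm38. They lie at chr8:31837670-31837728 (beta, 59 nt), chr8:31838261-31838328 (alpha, 68 nt) and chr8:31831205-31831228 (the exon of 24 nt).
Nrg1 beta exon: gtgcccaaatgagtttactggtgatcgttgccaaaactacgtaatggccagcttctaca
Nrg1 alpha exon: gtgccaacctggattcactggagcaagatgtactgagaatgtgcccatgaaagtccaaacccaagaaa
Nrg1 beta1 exon: agcatcttgggattgaatttatgg

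Hbegf, whose product binds Egfr and Erbb4, was the leading ligand by TPM and by counts. The gene (ENSMUSG00000024486.5, chromosome 18, 36504927 to 36515805, minus strand) had 6.59 and 7.49 TPM, from 456 and 467 counts on its single model of 208 codons. It held 62.1% and 55.1% of the summed TPM of the 5 ligands, and Nrg1 held 26.1% and 35.2%. Hbegf was the higher in both pools, by 2.38-fold and 1.57-fold, but the mean log2 TPM ratio of 0.95 ± 0.43 lay inside the limit of 2.07. The order of the pair cannot be told from 2 pools. The Nrg1 level also comes from a single deposited model that leaves most forms without a row, which limits the shares as well.

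Nrg4, an Erbb4 ligand known from brown fat, stood just above the detection threshold, at 1.11 and 1.15 TPM from 60.55 and 57.17 counts (ENSMUSG00000032311.13, chromosome 9, 55220222 to 55326844, minus strand). Little of that signal was assigned to models that code for the ligand. Of its 13 transcripts, the leading one was Nrg4-209, a noncoding processed transcript, with 48.25 and 32.64 counts and 80.55% and 58.16% of the TPM. Nrg4-207, annotated as a target of nonsense-mediated decay, held 12.4% and 33.9%. The 2 coding models were assigned 0 counts in replicate 1 and 1.18 counts in replicate 2. The split among the models was not firm. In replicates 1 and 2 the deposited TPM interval of the coding Nrg4-213 reached up to 0.77 and 0.67 TPM. That of Nrg4-209 began at 0.00076 and 3.7e-05 TPM. By posterior means, the other deposited estimate, Nrg4-209 held 35.1% and 17.75% and was passed by Nrg4-207 (21.2%) in replicate 2, and the coding share was 18.5% and 22.8%. The exons of Nrg4-209 overlap those of Fbxo22 on the opposite strand by 166 nt and those of Nrg4-207 by 202 nt. Fbxo22 stood at 57.7 and 59.9 TPM, and whether its reads enter the Nrg4 counts was not tested. Overlapping genes were looked up after the values were seen.

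Nrg2 and Nrg3 rested on 7 counts or fewer in each pool. Nrg2 (ENSMUSG00000060275.7, chromosome 18, 36017652 to 36197380, minus strand) had 3 and 7 counts and 0.12 and 0.09 TPM. Its reads fell on Nrg2-201, a noncoding model, in replicate 1 and on Nrg2-202, a coding one, in replicate 2. Nrg3 (ENSMUSG00000041014.13, chromosome 14, 38368952 to 39473088, minus strand) had 2 and 5 counts and 0.03 and 0.08 TPM. Its leading model in both pools was the coding Nrg3-203, with 2 and 3.41 counts. The remaining 1.59 counts of Nrg3 in replicate 2 were on Nrg3-204, a retained intron. At these counts the order of the 2 genes and their difference between pools were not detectable.

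**Figure D2:**
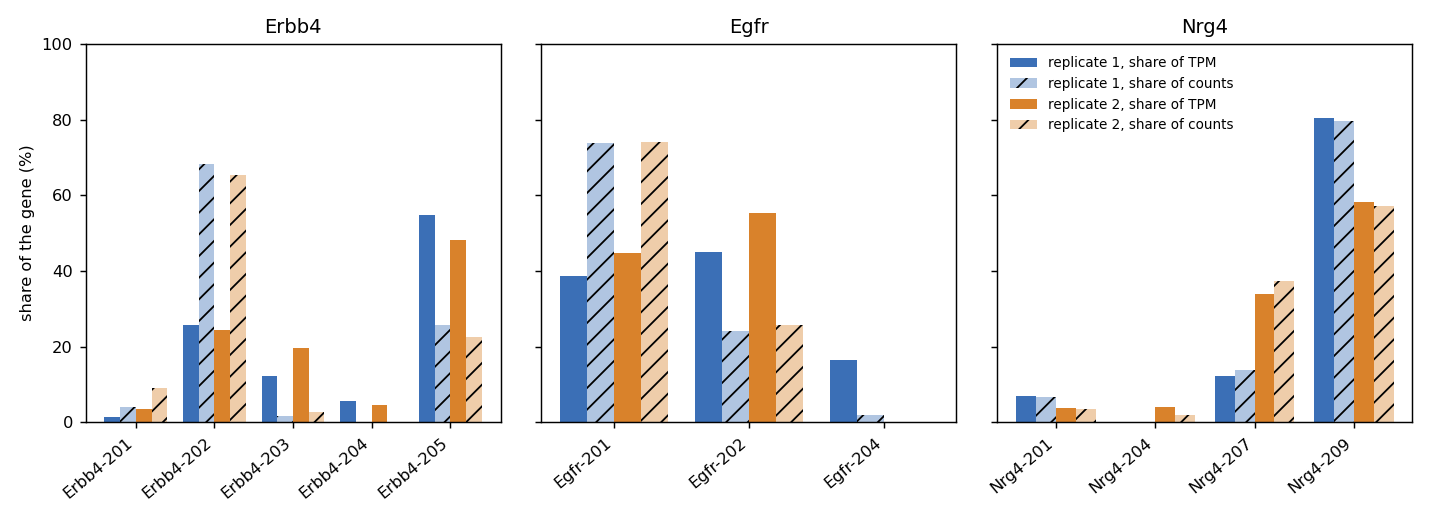
Share of each gene's TPM (solid bars) and of its expected counts (hatched bars), in percent, for transcripts of Erbb4, Egfr and Nrg4 with more than 1% by either measure, in replicate 1 (blue) and replicate 2 (orange). For Erbb4 and Egfr the highest bar belongs to another transcript by counts than by TPM, and for Nrg4 it is Nrg4-209 by both.

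Summed receptor RNA exceeded summed ligand RNA in both pools, mostly through Erbb2. The 4 receptors summed to 56.3 and 79.3 TPM and the 5 ligands to 10.6 and 13.6 TPM, a ratio of 5.30-fold and 5.84-fold (mean log2 ratio 2.48 ± 0.10, SD, n = 2). Erbb2 alone exceeded all ligands together and held 70.1% and 75.4% of the receptor sum. Egfr, at 2.51 and 1.60 TPM, lay below Hbegf and Nrg1 in both pools, but neither difference passed its limit. The mean log2 TPM ratio was 1.81 for Hbegf over Egfr (limit 2.54) and 0.86 for Nrg1 over Egfr (limit 2.70). By counts Egfr exceeded Nrg1 in both pools (404 and 268 against 169 and 263). By posterior means it did so in replicate 1 (3.12 against 2.74 TPM). The Nrg1 part of the ligand sum comes from a single model that leaves most forms without a row. Counts carry no scaling by length and so favour the longer receptor transcripts, and by them the ratio was 12.3-fold and 13.3-fold. Of the 20 pairs of a receptor with a ligand, 12 differed beyond the spread between pools. Those without Nrg2 or Nrg3 in them were Erbb2 over Hbegf, Nrg1 and Nrg4, and Erbb4 over Nrg4. Among the 6 pairs of receptors 3 differed, each with Erbb2 as the higher gene. Of these only Erbb2 over Erbb3 passed with the 99th percentile as the limit. Of the 10 pairs of ligands 6 differed, each with Nrg2 or Nrg3 in it except Hbegf over Nrg4 (mean log2 TPM ratio 2.64 ± 0.09, limit 2.58). That pair lay close to its limit and passed it under only 5 of the 9 alternatives, failing with 200 or 1000 genes behind the limit, with the 99th percentile and without replicate 2.

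No member differed between the pools by the rule used for all genes: a mean count of 50 or more, a 2-fold ratio of scaled counts and deposited intervals of TPM that do not overlap. That is 0 of the 7 members tested, beside 995 of 14124 genes (7.04%). Nrg2 and Nrg3 had too few counts. The largest ratio of the 7 was that of Nrg1, at a log2 ratio of replicate 2 over replicate 1 of 0.89 (95% counting interval 0.60 to 1.18). Erbb2 followed at 0.68 (0.63 to 0.72) and Erbb4 at 0.59 (0.47 to 0.70). These 3 are the ligand and the receptor pair of the trabecular signal, and all were higher in replicate 2. They passed a lower threshold of 1.5-fold in that direction, Erbb4 narrowly at 1.502-fold (1.41-fold by deposited TPM, which does not pass), beside 7.75% of all genes tested, and theirs were the 3 of 7 members with intervals of TPM that did not overlap, against 52.3% of all genes. Hbegf was at 0.28 (0.10 to 0.47), Erbb3 at 0.17 (0.04 to 0.29) and Nrg4 at 0.17 (-0.39 to 0.70). Egfr, at -0.34 (-0.57 to -0.12), was the only tested member higher in replicate 1. In all, 6 of 7 members were higher in replicate 2, beside 51.8% of all genes, whose median log2 ratio was 0.01.

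Markers of the cells that carry these genes also differed in level between the pools. The 9 heart muscle markers all stood higher in replicate 2 (median log2 ratio 0.81). The 8 markers of endocardium and endothelium were too, with a median of 0.56 and summed levels of 216.4 and 304.4 TPM. Nrg1, Erbb2 and Erbb4, at 0.89, 0.68 and 0.59, lay in the range of the heart muscle list (0.35 to 1.60). Erbb2 and Erbb4 also lay in the range of the list of endocardium and endothelium (0.36 to 0.75). Nrg1, a ligand of the endocardium, lay above all 8 markers of that list. Of the 7 cushion mesenchyme markers 6 were higher in replicate 1 (median -0.64, summed 882.7 and 627.7 TPM), as was Egfr. Erbb3, which serves in that mesenchyme, was higher in replicate 2 (0.17). The lists of neural tissue (median -0.55), neural crest (-1.80), foregut (-1.88) and liver (-4.64) also leaned to replicate 1. With ERCC spike-in scaling, which moved the median of all genes by 0.32, the log2 ratio of Egfr was -0.02. By deposited TPM it was -0.65. The marker medians given here were not rescaled in either way. The 6 epicardial markers had a median of -0.05. For the 7 blood cell markers the median was 0.28, with 5 of them higher in replicate 2. The part of the makeup of the pools in the members' ratios was not tested.

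**Figure D3:**
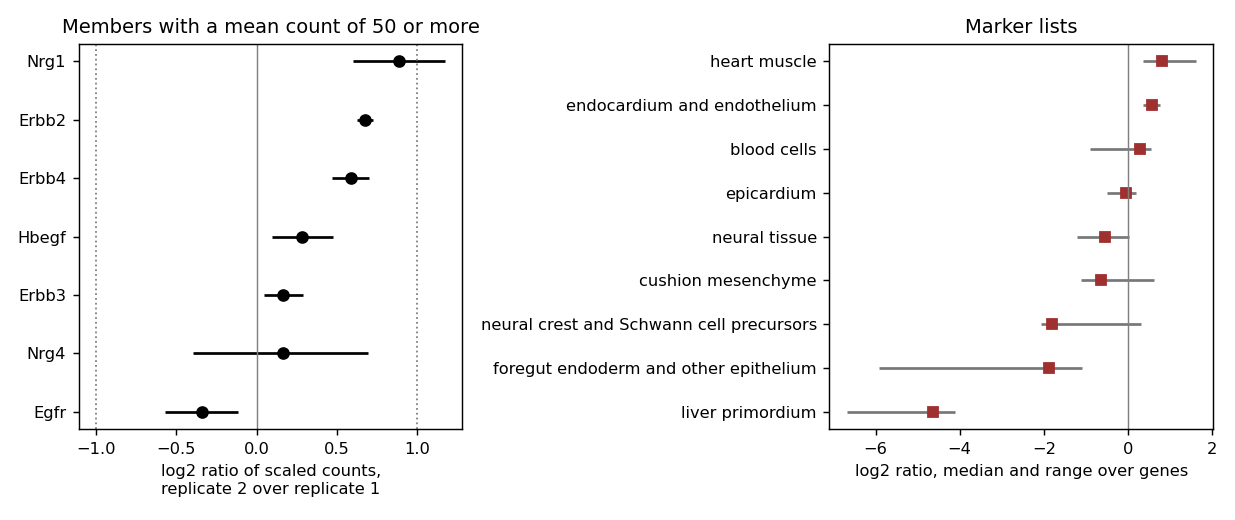
Left, log2 ratio of scaled counts (replicate 2 over replicate 1) of the 7 members with a mean count of 50 or more, with 95% counting intervals and dotted lines at the 2-fold threshold. Right, the median (square) and range (line) of the same ratio over the genes of each marker list: no member passes the threshold, while the 7 liver markers all lie below -4.

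Other genes of the pathway were taken from lists grouped by role, and 86 of the 93 were detected in both pools. Among the 6 other ligands of the EGF family only Tgfa, a ligand of Egfr, was detected, at 3.60 and 3.88 TPM, about the level of Nrg1. Egf itself stood at 0.42 and 0.37 TPM and Btc, which binds Egfr and Erbb4, at 0.32 and 0.26. Areg had 2 and 9 counts, Epgn 6 and 3, and Ereg 7 and 9. The Egfr ligands measured at 1 TPM or more in both pools were thus Hbegf and Tgfa.

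Proteases and their helpers that free membrane-bound ligands, or cut the receptors, were detected for 9 of 10 genes. Adam10 led at 56.7 and 70.3 TPM, Adam15 stood at 35.0 and 41.5, and Rhbdf1, which escorts ADAM17 to the surface, at 35.1 and 34.7. Each exceeded the summed level of the 5 member ligands in both pools. By the rule used for all genes none of the 10 differed between the pools, beside 7.04% of all genes tested. Adam8 (log2 ratio -0.99) and Adam12 (-0.78) were higher in replicate 1, short of 2-fold, and the other 8 were higher in replicate 2.

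All 30 adaptors and effectors downstream of the receptors were detected, among the most abundant the kinases Map2k2 (161.8 and 145.9 TPM) and Map2k1 (90.2 and 100.4). A single gene of the list differed between the pools. Grb7, an adaptor of ErbB receptors whose gene neighbours Erbb2 on chromosome 11, was higher in replicate 1, at 12.7 against 2.09 TPM (log2 ratio -2.58). Erbb2 was higher in replicate 2. Of all genes tested, 4.74% were called higher in replicate 1. The liver and foregut markers moved with Grb7, all 7 liver markers being called higher in replicate 1, and their part in its difference was not tested.

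Regulators of receptor stability were detected for 16 of 17 genes. The chaperones Hsp90ab1 (1557.6 and 1370.1 TPM) and Hsp90aa1 (888.6 and 517.4), which keep Erbb2 folded, and the ubiquitin ligase Nedd4 (428.2 and 494.5), which acts on Erbb4, led the list. Lrig3, a membrane protein of the list, was called higher in replicate 1, at 5.37 against 1.83 TPM. Of the 17 genes 1 was called, a share near the 4.74% of all genes. The liver and foregut markers were higher in the same pool, and their part in the level of Lrig3 was not tested. Lrrc4 was below 1 TPM in both pools, at 0.72 and 0.62.

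Genes commonly induced by signals from these receptors were detected for 14 of 14. Ccnd1 (79.2 and 77.4 TPM), Dusp6 (53.5 and 47.8) and Myc (64.1 and 34.3) had the highest mean levels, though Spry2 exceeded Myc in replicate 2. Spry2, a feedback inhibitor of receptor kinases, was the only gene of the list called, higher in replicate 2 at 40.9 against 19.9 TPM, beside 2.31% of all genes called in that direction. The median log2 ratio of the list was 0.12. These genes answer to other receptors as well.

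Partners of Nrg1 signalling in trabeculation were detected for 16 of 16 genes. Of them 4 were called higher in replicate 2 and none higher in replicate 1, beside 2.31% and 4.74% of all genes tested, and the median log2 ratio of the list was 0.53. The list was chosen with earlier results of these data known, so those shares are not a fair background for it. The 4 were Nppa, a hormone of chamber muscle (2000.5 and 3797 TPM), Cited1 (311.4 and 700.7), the gap junction gene Gja5 (47.2 and 112), and the adhesion receptor Adgrg6 (6.52 and 17.1). Nppa passed narrowly, at a log2 ratio of 1.025, and by deposited TPM it differed by less than 2-fold. Vcan, a matrix proteoglycan of the cardiac jelly, had 89.5 and 139.9 TPM and was not called. Nppa, Cited1 and Gja5 are genes of chamber muscle, and the heart muscle markers were higher in the same pool with a median of 0.81. Their part in the median of this list was not tested.

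**Figure D4:**
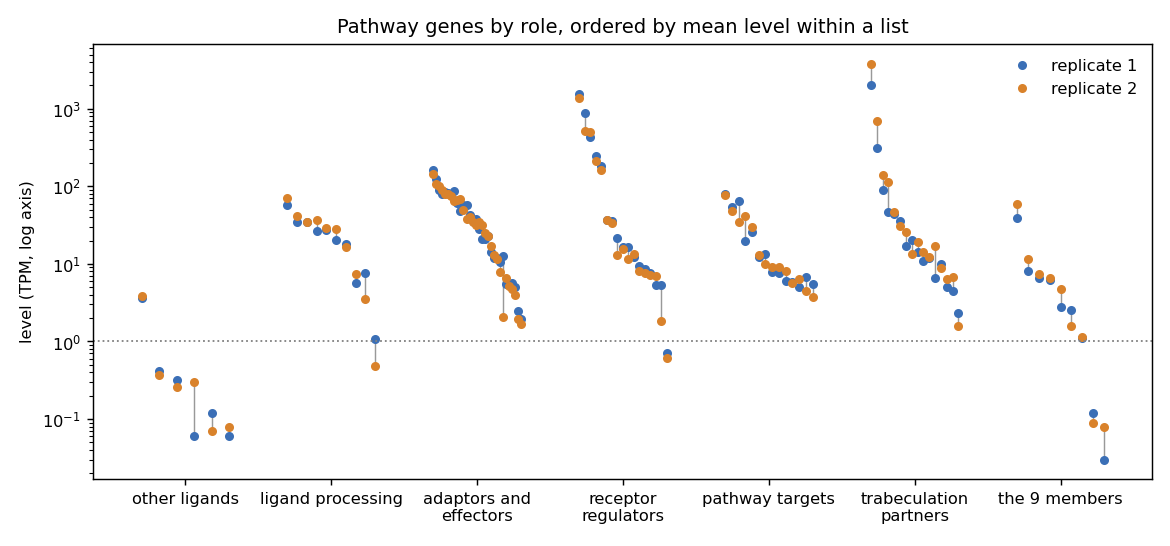
TPM (log axis) of the genes of 6 pathway lists and of the 9 members in replicate 1 (blue) and replicate 2 (orange), each gene's 2 points joined by a line and ordered by mean level within its list, with a dotted line at 1 TPM. Among the ligands outside the members 1 of 6 lies above the dotted line, and all 30 adaptors and effectors do.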

How the data were processed

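The 2 libraries were used as 1 group. Per the labels, total RNA was sequenced, the libraries are biological replicates and the assembly was mm10. The authors deposited, per gene and per transcript, expected counts (estimated counts of reads, not normalised), TPM and FPKM, with posterior mean estimates. They also deposited interval bounds of TPM, treated here as a score, and the percent of a gene's TPM in each transcript. Annotation release M4 is named in the deposited description. Neither the quantifying program nor its use of strand is given in the sources used here.

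Names, positions and exon sequences came from GENCODE M21 (GRCm38, which is mm10); 42462 of 43346 genes matched by identifier. Of the members' 36 transcripts, 32 had the same length in M21 as deposited. Members and lists were chosen with earlier results of these data known. With 2 pools of a single group there is no contrast of conditions and no p-value is given. Ratios between pools used expected counts with a prior count of 0.5, scaled by TMM factors (edgeR 4.0.16, R 4.3.3) from rounded counts of 17557 genes with a mean of 10 or more. A ratio of levels between genes used TPM with no pseudocount. Counting intervals are exact 95% intervals on rounded counts. Where a gene has 0 counts in a library, up to 3 are allowed for. That bound does not cover a 0 assigned to 1 of several transcripts of a gene. Python 3.11.15 with pandas 2.3.3 and scipy 1.17.1 did the rest. The procedures were tested on simulated data. For the call rule, the simulated spread between libraries was below that of these pools, whose common biological coefficient of variation was 0.30. Counting intervals stood in for the deposited ones, so no rate of false calls in these data follows.

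Named genes followed a rule. It took all 9 members, their transcripts with 10% or more of the gene's TPM in either pool, and from each list the 3 most abundant genes, up to 3 below 1 TPM in both pools and the 2 with the largest called difference. Erbb4-201, Erbb4-204, the coding Nrg4 models, Fbxo22, Mien1 and Foxd3 were added after their values were seen. Some genes the rule named are not reported here. Alternatives covered thresholds, pseudocount, prior count, FPKM, posterior means, counts, DESeq2 1.42.0 size factors, spike-in scaling and each pool alone.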

Additional observations from a re-analysis of the deposited data

How the results depend on the processing

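Counts of members and pairs mostly kept within 1.5 times of the reported value. Between 5 and 7 of 9 members were detected at 0.5 to 2 TPM, by FPKM, by posterior means and in each pool alone. The number of pairs beyond the spread ranged from 18 to 25 under 8 of 9 alternatives and was 12 with the 99th percentile as the limit, a stricter bound by construction. Members differing between pools numbered 0 with DESeq2 size factors, deposited TPM, lower count minimums or no demand on intervals. With ERCC spike-in scaling 1 member differed, Nrg1 at a log2 ratio of 1.21, beside 1296 of all genes (9.18%, and 6.09% higher in replicate 2), while that scaling moved the median of all genes by 0.32. At 1.5-fold 3 differed (Nrg1, Erbb2 and Erbb4), where 16.3% of all genes did in either direction. The log2 ratio of summed receptors over ligands was 3.68 by counts not divided by length, and 2.41 and 2.55 in single pools. Nrg2 turned from a log2 ratio between pools of 1.32 by counts to -0.42 by deposited TPM, on 3 and 7 counts whose transcripts differ in length. Posterior means put Nrg4 at 1.81 TPM in place of 1.13. By counts 4 of 6 multi-transcript genes kept their leading transcript, Egfr and Erbb4 being the exceptions. No paired analysis was possible because there is 1 group. Depth limits Nrg2 and Nrg3, at 7 counts or fewer in each pool.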
